A study of Mus musculus with 46 samples.

Results

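The subject of this report is a set of 1571 liver loci that carried the histone mark H3K27ac on a lipid-rich diet and on no carbohydrate-rich diet. They were chosen by the presence of called intervals: the H3K27ac intervals of 6 livers were merged where they overlapped, which gave 62774 loci, and a locus was kept as LD-only when all 3 livers on the lipid-rich diet (LD, labelled high fat diet) and none of the 3 livers on the carbohydrate-rich diet (CD, labelled low fat diet) had an interval there. All samples were liver tissue of male C57BL/6 mice without a genetic change, and the labels give no age. RNA was measured in 5 mice per diet, H3K27ac in 3 libraries per diet, the transcription factors Hnf4α and C/EBPα in 2 libraries per diet each, and promoter contacts by promoter capture Hi-C (PCHi-C) in 2 libraries per diet that the authors pooled into 1 list. The labels do not say whether the different assays used the same animals, nor that each RNA replicate, here called a mouse, was a separate animal, so p-values measure the spread between these samples.

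H3K27ac is an acetyl group on histone H3 that marks active promoters and active enhancers, the distal elements that act on promoters over a distance. Hnf4α, a nuclear receptor, and C/EBPα, a leucine zipper protein, are factors that hepatocytes need for their identity and metabolism, and both bind many liver enhancers. Liver tissue also holds Kupffer cells and other macrophages, lymphocytes, endothelial cells and stellate cells, so a locus seen in whole tissue can belong to any of them. In such bulk samples, more cells of a type and more acetylation or RNA per cell cannot be told apart.

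The presence of H3K27ac was what selected the members and is given as a description. An LD-only locus had a median width of 2000 bp, with a range of 400 to 7000 bp, and the members covered 3394 kb in all. The 3 LD libraries covered them to a similar extent, with a median of 1400 bp in each. In the least covered LD library of each locus the median was 1000 bp, and 87 loci (5.54%) had at most 400 bp there. Just outside the rule, 1952 loci had an interval in all 3 LD libraries and in 1 CD library, which was CD replicate 1 at 691 of them, CD replicate 2 at 800 and CD replicate 3 at 461, with a median of 1200 bp in that library. A further 2767 loci had an interval in 2 LD libraries and in no CD library, and LD replicate 1 was the missing library at 1308 of these. The reverse pattern, 3 CD and 0 LD libraries, was met by 380 loci, here called CD-only, and 29890 loci had an interval in all 6 libraries. The LD lists were longer than the CD lists (53821 to 56987 intervals against 48156 to 51608), and the part of list length in the larger number of LD-only loci was not tested. The lists hold positions without heights, so the depth behind an interval is unknown.

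LD-only loci were mostly distal. By the GENCODE annotation of mm9, the midpoint lay in an intron at 715 loci (45.5%), between genes at 669 (42.6%), in an exon at 53 (3.37%) and within 1 kb of a transcription start site (TSS) at 134 (8.53%). CD-only loci resembled them, with 6.05% within 1 kb of a TSS, whereas 27.7% of the loci in all 6 libraries were that close to one. Few members adjoined constant acetylation: 241 (15.3%) lay within 2 kb of a locus found in all 6 libraries, and the median distance to such a locus was 12.2 kb, against 5.7 kb for CD-only loci. Another LD-only locus lay within 20 kb of 229 members (14.6%). The members lay on chromosomes 1 to 19 and X, from 134 on chromosome 2 to 34 on chromosome X.

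To show the DNA at which the factors were measured, windows of 200 bases (mm9, plus strand) are printed for LD-only loci with the highest factor peaks on LD and no peak of that factor on CD. They are 8 of the 9 windows that the rule for sequences gave and serve as examples, so no share is read from them. Each is centred on the highest peak in an LD library. Capitals mark every match, on either strand, to 4 short strings: TGANTCA for AP-1 (which reads the same on both strands), TTGCNNAA for C/EBP proteins, CAAAGTCCA for HNF4 and GAGGAAGT for ETS factors of the PU.1 type. The first 5 windows are Hnf4α peaks. They lie between genes in a locus contacted by the Trib1 promoter (chr15:59631138-59631337), between genes beside Ibtk (chr9:85656027-85656226), between genes near 2310069B03Rik (chr6:82810599-82810798), between genes beside Bcl2l14 (chr6:134327976-134328175) and in an intron near Phospho1 (chr11:95662011-95662210). The last 3 are C/EBPα peaks, in an intron in a locus contacted by the Myom1 promoter (chr17:71697643-71697842), between genes on chromosome 7 (chr7:55987912-55988111) and between genes on chromosome 1 (chr1:154120613-154120812).
Hnf4α peak, Trib1 contact: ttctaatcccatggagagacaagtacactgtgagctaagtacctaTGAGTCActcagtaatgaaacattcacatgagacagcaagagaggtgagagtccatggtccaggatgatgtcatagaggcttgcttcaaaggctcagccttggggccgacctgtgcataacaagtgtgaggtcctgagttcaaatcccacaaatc
Hnf4α peak, Ibtk: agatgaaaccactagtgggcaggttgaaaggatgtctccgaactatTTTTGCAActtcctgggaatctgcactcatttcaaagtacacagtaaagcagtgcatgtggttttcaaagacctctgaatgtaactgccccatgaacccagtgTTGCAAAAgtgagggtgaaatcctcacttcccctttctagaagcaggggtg
Hnf4α peak, 2310069B03Rik: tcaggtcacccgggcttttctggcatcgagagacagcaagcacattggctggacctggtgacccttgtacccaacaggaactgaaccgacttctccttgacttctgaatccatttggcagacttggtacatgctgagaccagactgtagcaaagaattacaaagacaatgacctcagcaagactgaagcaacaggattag
Hnf4α peak, Bcl2l14: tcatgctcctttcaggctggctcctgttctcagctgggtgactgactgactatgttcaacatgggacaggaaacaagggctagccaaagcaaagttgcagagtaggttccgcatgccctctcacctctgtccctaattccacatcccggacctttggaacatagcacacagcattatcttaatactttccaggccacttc
Hnf4α peak, Phospho1: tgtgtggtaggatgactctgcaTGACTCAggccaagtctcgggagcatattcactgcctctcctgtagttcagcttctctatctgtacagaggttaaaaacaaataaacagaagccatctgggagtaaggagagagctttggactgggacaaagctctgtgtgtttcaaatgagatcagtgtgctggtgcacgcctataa
C/EBPα peak, Myom1 contact: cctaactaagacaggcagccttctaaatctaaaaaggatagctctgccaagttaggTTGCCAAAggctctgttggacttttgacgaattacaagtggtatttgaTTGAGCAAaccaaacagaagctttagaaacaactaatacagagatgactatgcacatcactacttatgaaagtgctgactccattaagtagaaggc
C/EBPα peak, chromosome 7: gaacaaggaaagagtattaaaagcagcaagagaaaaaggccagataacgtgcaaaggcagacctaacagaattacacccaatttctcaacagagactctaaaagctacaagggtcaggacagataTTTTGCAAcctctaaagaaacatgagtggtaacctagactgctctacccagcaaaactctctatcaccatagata
C/EBPα peak, chromosome 1: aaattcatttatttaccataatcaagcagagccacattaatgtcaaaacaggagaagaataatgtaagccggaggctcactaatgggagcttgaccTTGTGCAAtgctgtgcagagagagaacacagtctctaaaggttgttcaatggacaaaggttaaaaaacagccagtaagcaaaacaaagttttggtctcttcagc
The windows at the Trib1 contact and near Phospho1 each held 1 AP-1 string, and the window beside Ibtk held 2 C/EBP strings. The C/EBPα window at the Myom1 contact held 2 C/EBP strings, and those on chromosomes 7 and 1 held 1 each. Over all C/EBPα windows of LD-only loci, 115 of 247 held one. The Bcl2l14 and 2310069B03Rik windows held none of the 4 strings, which says only that these letters are not in them.

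Peaks of the factors are called independently of H3K27ac, so their presence could be compared at loci chosen by acetylation. An Hnf4α peak was found inside 26.7% and 29.5% of the LD-only loci in the 2 LD libraries, and inside 13.0% and 20.1% in the 2 CD libraries. A C/EBPα peak was found in 20.2% and 23.3% on LD and in 15.3% and 12.4% on CD. For both factors the LD libraries were above both CD libraries at these loci, and the exact 95% binomial intervals of the LD shares (24.5% to 28.9% and 27.3% to 31.9% for Hnf4α) did not overlap those of the CD shares (11.4% to 14.8% and 18.2% to 22.2%). These intervals cover counting error over loci only, and with 2 libraries per diet no permutation test can pass a threshold of 0.05, so none was run. The Hnf4α lists held 46363 and 44247 peaks on LD and 35143 and 47992 on CD, so the CD library with the lowest share also had the shortest list, while the other CD list was longer than both LD lists. Both C/EBPα lists were longer on CD (41713 and 46371) than on LD (38281 and 39310). At loci acetylated in all 6 libraries the shares were 62.1% and 61.6% on LD and 57.0% and 67.0% on CD for Hnf4α, without an order by diet. For C/EBPα they were 49.6% and 51.2% on LD and 49.4% and 44.1% on CD, and the LD libraries were above the CD libraries there too. At CD-only loci the diets overlapped for both factors, with 38.4% and 32.9% on LD and 32.6% and 48.2% on CD for Hnf4α, and 22.4% and 23.7% on LD and 23.4% and 20.3% on CD for C/EBPα.

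**Figure D1:**
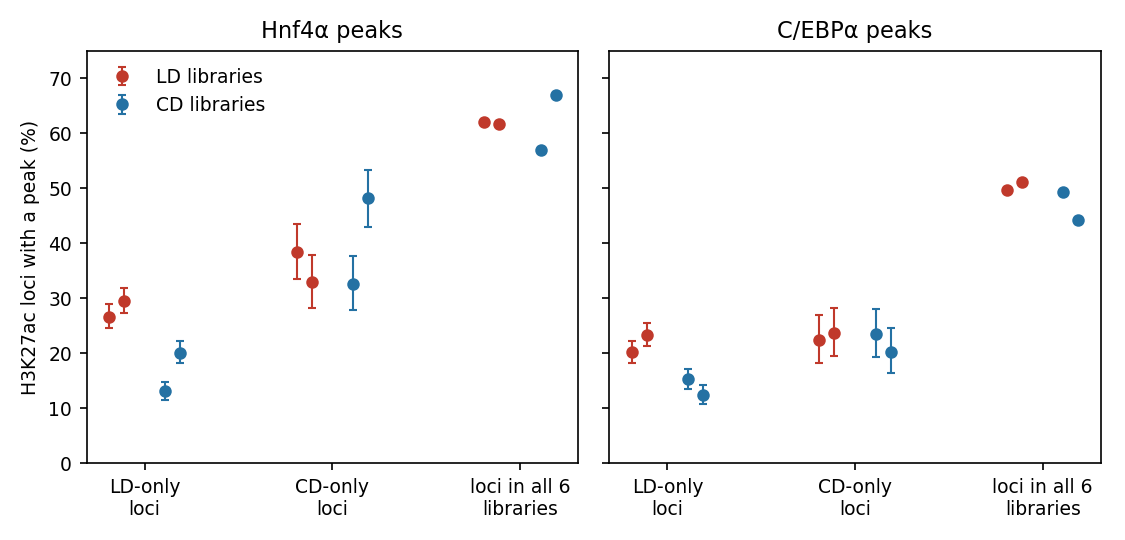
Percent of H3K27ac loci with an Hnf4α peak (left) or a C/EBPα peak (right), for LD-only, CD-only and constantly acetylated loci, with 1 point per library and exact 95% binomial bars, which are smaller than the points for loci in all 6 libraries. At LD-only loci both LD libraries lie above both CD libraries for each factor, and fewer LD-only loci hold a peak than loci acetylated in all 6 libraries.

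Taking a peak in both LD libraries as present, 346 LD-only loci (22.0%) held Hnf4α and 247 (15.7%) held C/EBPα on LD, and 139 of them held both. At most of these loci the factor had a peak in at least 1 CD library, a looser rule than on LD: of the 346, 266 had such an Hnf4α peak and 80 had none on CD. For C/EBPα, 167 of the 247 had a peak in at least 1 CD library and 80 in neither. With a peak required in both CD libraries, as on LD, 158 of the 346 held Hnf4α on CD and 98 of the 247 held C/EBPα. The opposite pattern, a peak in both CD libraries and in neither LD library, was seen at 3 LD-only loci for Hnf4α and at 8 for C/EBPα. More than 1 in 2 members, 816 (51.9%), had no peak of either factor in any of the 8 libraries, against 32.6% of CD-only loci and 16.0% of loci in all 6 libraries. Loci in all 6 libraries were wider (median 3800 bp), which leaves more room for a peak, and the part of width in this difference was not tested.

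Peak height, given by HOMER as tags per peak scaled to a common library total, allowed a comparison at loci where a factor was called in all 4 of its libraries. At the 158 such LD-only loci for Hnf4α, the 2 LD libraries had median heights of 26.0 and 28.9, against 10.2 and 19.0 in the 2 CD libraries. The 98 such loci for C/EBPα had medians of 24.5 and 26.2 in the LD libraries, and of 23.8 and 16.0 in the CD libraries. Because libraries differ in their overall heights, each median was divided by the median of the same library at loci in all 6 H3K27ac libraries. For Hnf4α this ratio came to 0.647 and 0.757 in the LD libraries, against 0.416 and 0.384 in the CD libraries. For C/EBPα it came to 0.961 and 0.938, against 0.594 and 0.593. At CD-only loci the order was the reverse for both factors, with 0.516 and 0.419 on LD against 0.598 and 0.562 on CD for Hnf4α (72 loci), and 0.686 and 0.616 against 0.931 and 0.981 for C/EBPα (38 loci). Relative to constant loci, both factors were higher on the diet on which the locus was acetylated, without overlap between the 2 libraries of each diet.

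**Figure D2:**
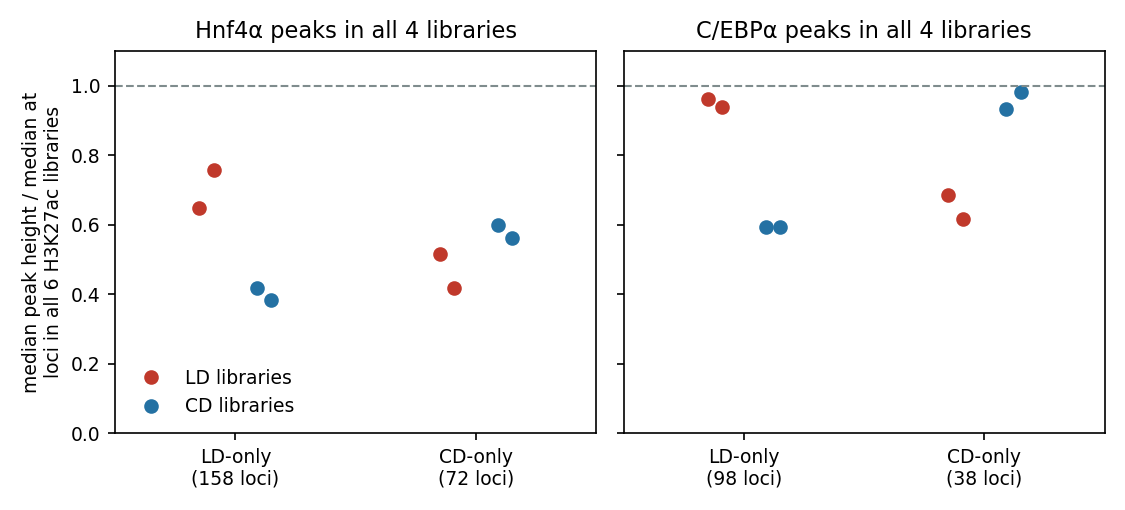
Median height of Hnf4α peaks (left) and C/EBPα peaks (right) at LD-only and CD-only loci with a peak in all 4 libraries, as a ratio to the median at loci in all 6 H3K27ac libraries (dashed line at 1), with 1 point per library. The LD points lie above the CD points at LD-only loci and below them at CD-only loci.

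The strings marked in the printed windows were counted in the same 200-base windows at all LD-only loci with a peak on LD. At Hnf4α peaks, an AP-1 string was found in 61 of 346 windows (17.6%), against 7.81% of 16341 windows at Hnf4α peaks of loci in all 6 libraries and 6.32% of 95 windows of CD-only loci. At C/EBPα peaks it was found in 37 of 247 windows (15.0%), against 7.79% of 12768 and 3.33% of 60. AP-1 is the family of Fos, Jun and Atf proteins, which bind as pairs and respond to stress and growth signals. The HNF4 string was found at 6.07% of LD-only Hnf4α peaks, 5.64% of those of loci in all 6 libraries and 9.47% of those of CD-only loci. The C/EBP string stood in 46.6% of the C/EBPα windows of LD-only loci, 41.7% of those of loci in all 6 libraries and 30 of 60 of those of CD-only loci. The PU.1-type ETS string, which macrophage and lymphocyte factors recognise, was rare in these windows (2.02% at Hnf4α peaks). Over whole loci there were 0.126 matches per kb at the 816 LD-only loci without a factor peak and 0.0941 per kb at the other 755, against 0.0975 and 0.0709 per kb at loci in all 6 libraries and 0.0542 and 0.0544 per kb at CD-only loci. Matches to different strings were counted separately. These are counts of letters, without a test, and not of bound sites.

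**Figure D3:**
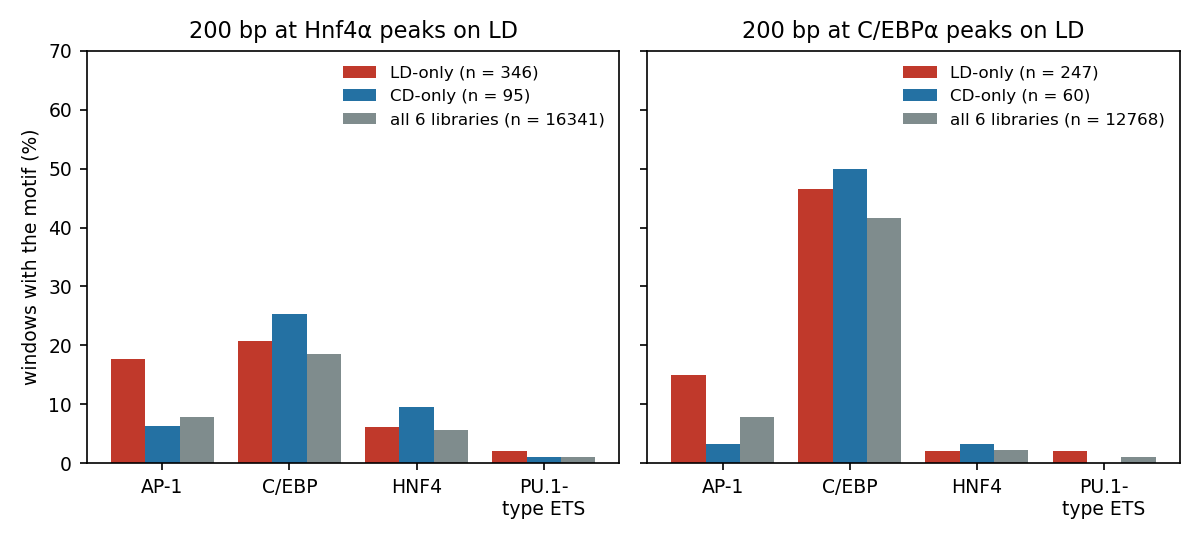
Percent of 200-base windows that hold each string, at the highest Hnf4α peak (left) or C/EBPα peak (right) on LD, for LD-only, CD-only and constantly acetylated loci. The AP-1 string is found in 17.6% and 15.0% of LD-only windows, the highest of the 3 classes in both panels.

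The RNA of nearby genes was a readout that the choice of loci did not use. The nearest gene was the one whose TSS was closest to the locus midpoint, at most 50 kb away, which gave a gene to 1103 loci (70.2%) and 1010 different genes. Of these genes, 735 passed the filter on low counts and were tested. RNA libraries held 31707963 to 39012699 counts on genes. A gene was called when edgeR's quasi-likelihood test gave a Benjamini-Hochberg adjusted p-value under 0.05 over all 13494 tested rows and the fold change was above 1.2. Of the 735 tested nearest genes, 207 (28.2%) were called higher on LD, against 13.8% of all tested rows, and 39 (5.31%) were called lower, against 11.1%. The median log2 fold change (LD minus CD) of the nearest genes was 0.18, and that of all tested rows was -0.0019. In 157 nearest genes (21.4%) every LD mouse was above every CD mouse, against 10.2% of all rows, and in 24 every LD mouse was below, against 8.35% of all rows. Genes near CD-only loci went the other way, with 11 of 195 called higher and 67 lower, and genes near loci in all 6 libraries were close to the background, with 13.4% called higher and 11.8% lower.

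The share of called genes differed with distance and with the number of loci. With the midpoint within 1 kb of the TSS, 22 of 53 tested genes were called higher and 1 lower, and the median log2 fold change was 0.73. From 20 to 50 kb, 77 of 285 were called higher and 16 lower, and the median was 0.15. Among genes nearest to a single LD-only locus, 180 of 670 were called higher. Among those nearest to 2 loci the count was 21 of 54, and among those nearest to 3 or 4 loci it was 6 of 11 with none lower. The 12 genes of this last kind were Ptprc, Tmsb4x, Lrrc20, Slc1a4, Ccr2 and Lsm3, which were called higher, Acot1, Spred1, Fgl2, Mitf and Limd1, which were not called, and Ccr3, whose counts were too low to be tested. By factor, 48 of 139 genes (34.5%) nearest to loci with Hnf4α on LD were called higher, 19 of 50 (38.0%) nearest to loci with both factors, and 108 of 423 (25.5%) nearest to loci without a peak of either factor.

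**Figure D4:**
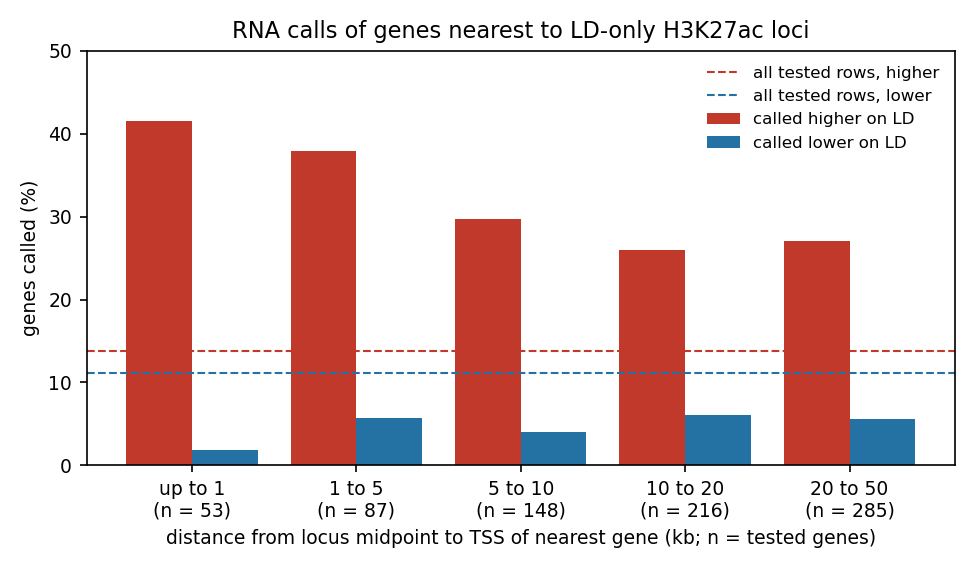
Percent of tested genes nearest to LD-only loci that were called higher (red) or lower (blue) on LD, by the distance from the locus midpoint to the TSS in kb, with the number of tested genes under each pair of bars. Dashed lines give the shares over all tested rows, and the called-higher share is above its line in each distance class while the called-lower share is below its own.

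Among the genes with the most LD-only loci, Ptprc and Ccr2 are in the lists of leukocyte markers described below, and the share of leukocyte genes was not tested. Ptprc, which encodes CD45, a phosphatase of all leukocytes, was nearest to 4 loci, all in introns and more than any other gene had (chr1:140027200-140029399, chr1:140031000-140035399, chr1:140048400-140050999 and chr1:140053000-140056999), none of which held an Hnf4α peak in any library. Its level in CPM, gene counts scaled to a common library total, was 37.3, 63.8, 30.3, 25.1 and 34.8 in LD mice 1 to 5 and 26.3, 26.7, 19.9, 19.3 and 26.4 in CD mice 1 to 5. LD mouse 2 was the highest, LD mouse 4 lay within the CD range, and the log2 fold change of 0.69 (SE 0.23) was called at an adjusted p of 0.0485, a call lost in 10 of 14 other settings of the fit, where adjusted p ranged from 0.00548 to 0.106.

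Ccr2, the receptor that draws monocytes into tissue, was nearest to 3 loci, of which the widest (chr9:124016800-124023399) was covered over 5600, 4800 and 6000 bp in the 3 LD libraries. Its CPM was 8.58, 13.1, 9.74, 9.04 and 16.0 on LD, against 3.15, 3.002, 3.66, 2.86 and 3.43 on CD. The diets did not overlap, and the log2 fold change was 1.81 (SE 0.17, adjusted p = 2.01e-05). Cx3cr1, a chemokine receptor of monocytes and macrophages, had 2 loci, one of them among the 2 widest of all members (chr9:119972800-119979799). Its CPM was 3.599, 10.6, 4.72, 7.19 and 11.4 on LD, against 1.34, 1.36, 1.65, 1.33 and 1.11 on CD, and it rose by 2.46 on the log2 scale (SE 0.31, adjusted p = 0.000227). Ccl4, a chemokine, had 2 loci, one within 1 kb of its TSS, and lay at 0.455 to 1.36 CPM on LD and 0 to 0.287 on CD (log2 fold change 3.16, SE 0.58, adjusted p = 0.00154, and 4.14 without CD mouse 1). Mmp12, a protease that macrophages secrete, had 1 locus 7.60 kb away and ranged from 1.49 to 22.2 CPM on LD and from 0.350 to 0.614 on CD (log2 fold change 4.59, SE 0.69, adjusted p = 0.00144). Tmsb4x, an actin-binding peptide abundant in leukocytes, had 3 loci on the X chromosome and lay at 161 to 302 CPM on LD and 96.6 to 159 on CD (log2 fold change 0.62, adjusted p = 0.0321, a call lost in 3 of 14 settings). Ggta1, which makes the alpha-gal sugar, had a locus of 6400 bp and rose by 0.71 (adjusted p = 0.00696). 4833417C18Rik, nearest to a locus of 5800 bp, differed by -0.0073 on the log2 scale without a call (adjusted p = 0.992), and another of the 5 widest loci had no gene within 50 kb.

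Of the 22 macrophage and Kupffer cell markers, all tested, 8 were called higher and none lower, with a median log2 fold change of 0.63, where 13.8% of all tested rows were called higher and 11.1% lower at a median of -0.0019. These shares are also the background of the other lists. Their nearest members were Ccr2, Csf1r, Cd5l, Itgam and Trem2. Trem2, a lipid-sensing receptor of macrophages, had a locus at its TSS (chr17:48485000-48487399) and rose from 0.175 to 0.9497 CPM on CD to 1.22 to 6.29 on LD (log2 fold change 2.56, SE 0.47, adjusted p = 0.00242). Itgam, the integrin CD11b, was at 2.62 to 8.36 CPM on LD and 1.68 to 2.56 on CD (adjusted p = 0.0399), a call lost in 7 of 14 settings, where adjusted p ranged from 0.0101 to 0.0895. Csf1r, the receptor of the macrophage growth factor, had a locus 6.03 kb from its TSS without a called change (log2 fold change 0.16, adjusted p = 0.63), and Cd5l, a Kupffer cell protein, was at 0.56 (adjusted p = 0.231). Of the 14 lymphocyte and granulocyte markers 4 were called higher and 1 lower, and Ptprc and Ms4a1, the B cell antigen CD20, were the nearest members (Ms4a1 log2 fold change 0.57, adjusted p = 0.0656, and 0.0434 without CD mouse 5). The 12 loci next to members of these 2 lists held no Hnf4α peak in any library, and 5 of them held a C/EBPα peak in at least 1 library. Among all LD-only loci, 63.9% held no Hnf4α peak and 66.1% no C/EBPα peak in any library of that factor.

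The summed CPM of the macrophage list was 891 to 2004 in LD mice and 638 to 1180 in CD mice, and that of the lymphocyte list 38.0 to 141 and 28.3 to 36.3, with LD mouse 2 the highest for both. Of the 10 endothelial markers 1 was called higher, with a summed CPM of 516 to 734 on LD and 574 to 697 on CD. Pecam1 and Cd34, both of that list, had 1 and 2 LD-only loci at log2 fold changes of 0.15 (adjusted p = 0.249) and 0.11 (adjusted p = 0.792). Of the 13 stellate cell and fibroblast markers 5 were called higher (796 to 1163 summed CPM on LD, 675 to 820 on CD), and of the 6 tested cholangiocyte markers 1 was called higher (46.2 to 122 and 19.0 to 32.7). Both tested adipocyte markers were called higher (27.6 to 60.7 and 5.81 to 10.3). None of these 3 lists had a member nearest to an LD-only locus. Hepatocyte markers were at 87065 to 108140 summed CPM on LD and 98151 to 113920 on CD, and 4 of 10 were called lower and none higher. The part of these cell types in the H3K27ac loci and in the nearby RNA was not tested. Without LD mouse 2, 194 nearest genes were called higher and 35 lower, against 207 and 39 of 735 tested with it. Calls over all tested rows also became fewer in both directions in that fit. The part of leukocyte RNA in these counts was therefore not tested either.

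Of the lists of lipid genes, 1 of 12 lipid droplet genes, 2 of 11 fatty acid uptake genes and 2 of 21 fatty acid oxidation genes were nearest to an LD-only locus. Cidea, a protein of the lipid droplet surface that promotes droplet growth, had a locus at its TSS. Its CPM was 22.2, 23.9, 41.0, 27.7 and 22.7 on LD, against 0.478, 0.705, 0.922, 0.381 and 0.320 on CD. Every LD mouse was far above every CD mouse, and the log2 fold change was 5.58 (SE 0.27, adjusted p = 2.58e-06). Of the 11 tested lipid droplet coat and CIDE genes 5 were called higher and 1 lower. Vldlr, the receptor for very low density lipoprotein, had a locus 40.6 kb away with Hnf4α peaks of 26.0 and 22.8 on LD and of 0 and 33.0 on CD. It was at 6.57 to 14.4 CPM on LD and 3.14 to 7.96 on CD (log2 fold change 1.11, adjusted p = 0.0116). Lpl, the lipase that frees fatty acids from lipoproteins, was at 26.99 to 52.8 CPM on LD and 12.8 to 24.4 on CD (log2 fold change 0.91, adjusted p = 0.00887), and it was the nearest gene of 1 locus and the captured target of 2 others. Of the 11 fatty acid uptake and binding genes, 6 were called higher and 1 lower.

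The acyl-CoA thioesterase cluster on chromosome 12 held 4 LD-only loci between 85320800 and 85364999. These enzymes split fatty acyl-CoA into fatty acid and coenzyme A. One locus (chr12:85320800-85323599) was nearest to Acot2, which rose from 2.98 to 7.48 CPM on CD to 10.9 to 23.8 on LD (log2 fold change 1.80, SE 0.31, adjusted p = 0.00204). It was also contacted by the promoters of Acot4 (CHiCAGO score, a measure of contact above the distance-dependent background, of 34.65 on LD and 33.8 on CD) and Acot3 (20.9 and 25.3), of which Acot4 was called higher (log2 fold change 0.77, adjusted p = 0.0136). Acot3, higher by 1.38 on the log2 scale, was not called (adjusted p = 0.0869) in the edgeR fit but was called with DESeq2 (adjusted p = 0.0318), with the replicate block (9.12e-05) and without LD mouse 5 (0.0482). The replicate block matches samples by their number, although these numbers do not pair the samples. The other 3 loci were nearest to Acot1, whose CPM of 11.4 to 19.9 on LD and 7.91 to 20.7 on CD overlapped (log2 fold change 0.20, adjusted p = 0.612). Of these, chr12:85361800-85364999 held an Hnf4α peak of 12.5 and 23.8 on LD and none on CD, but its C/EBPα peaks were 0 and 14.5 on LD, against 26.5 and 21.0 on CD. Another, chr12:85339000-85341199, held Hnf4α on both diets (9 and 12.8 on LD, 6.75 and 13.8 on CD), and the third had no peak of either factor. Acot1 and Acot2 are close copies, and reads that fit both cannot be attributed to 1 of them. Of the 21 fatty acid oxidation genes 14 were called higher and none lower, against 13.8% and 11.1% of all tested rows, and Acot1 and Acot2 were the list's only nearest members.

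**Figure D5:**
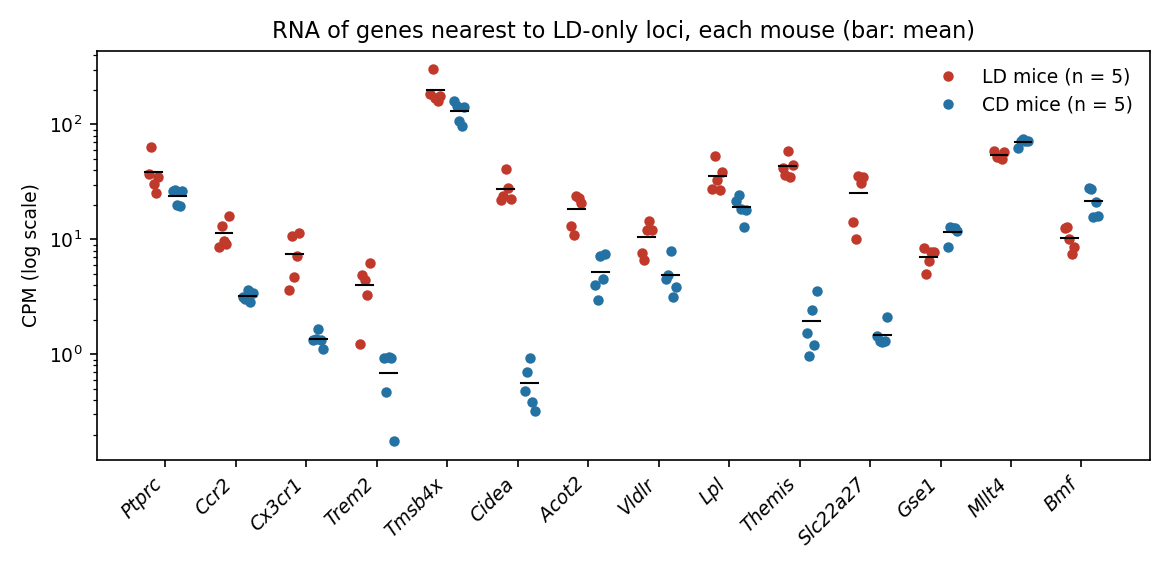
CPM on a log scale of 14 genes nearest to LD-only loci in each of 5 LD mice (red) and 5 CD mice (blue), with the mean as a bar. Cidea, Themis, Slc22a27, Ccr2, Cx3cr1 and Acot2 do not overlap between the diets, Ptprc and Vldlr do, and Gse1, Mllt4 and Bmf are lower on LD. Non-overlap was required by a rule that named Cidea, Themis and Slc22a27, and Gse1, Mllt4 and Bmf were named as genes called lower.

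The largest RNA differences next to LD-only loci included genes of metabolism and of no list. The genes of this paragraph were picked for a large change without overlap between the diets, so their separation is not a further result. Themis, named for its role in thymocyte selection, was at 35.1 to 58.8 CPM on LD and 0.966 to 3.55 on CD (log2 fold change 4.48, SE 0.32, adjusted p = 2.01e-05), and its intronic locus held Hnf4α peaks of 17.2 and 18 on LD and 3.75 and 5.25 on CD. Slc22a27, an organic anion transporter gene, had a locus at its TSS and lay at 10.1 to 35.5 CPM on LD and 1.28 to 2.10 on CD (log2 fold change 4.08, SE 0.42, adjusted p = 0.000176). Cyp2b13, a cytochrome P450 gene with close copies beside it, was at 0.453 to 9.31 CPM on LD and at 0 in 4 CD mice and 0.0559 in the other (adjusted p = 0.00241). The intronic locus nearest to Cyp2b13 already held a high Hnf4α peak on both diets, 103 and 91.5 on LD and 67.0 and 139.5 on CD. Rbm24, an RNA-binding protein, was at 0.667 to 1.77 CPM on LD and at most 0.0522 on CD (adjusted p = 1.27e-05), and Chil1, a chitinase-like protein, at 0.785 to 1.94 and at most 0.116 (adjusted p = 6.00e-05). Chil1 had 2 loci, one with Hnf4α at 27.8 and 32.2 on LD and 5.25 and 9.50 on CD. Ttc39aos1, B430212C06Rik and Sh2d1b1 had log2 fold changes of 5.20, 4.31 and 3.98 (3.04 for Sh2d1b1 without LD mouse 2), and the Ttc39aos1 locus held Hnf4α peaks of 31.8 and 36.0 on LD and 0 and 8.75 on CD.

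Several genes with moderate changes had 2 or 3 loci. Slc1a4, a transporter of neutral amino acids, had 3 adjacent loci 34.1 to 40.2 kb from its TSS, and the Hnf4α peaks in the first were 36.5 and 51.5 on LD and 0 and 11.5 on CD, in the second 29.2 and 38.0 on LD and 0 and 12.0 on CD. Slc1a4 lay at 8.60 to 13.8 CPM on LD and 4.46 to 6.68 on CD (log2 fold change 1.01, SE 0.16, adjusted p = 0.000681). Lrrc20 and Lsm3, a subunit of an RNA-binding ring, had 3 loci each and rose by 0.77 (adjusted p = 0.00146) and 0.50 (adjusted p = 0.00808) on the log2 scale. One Lrrc20 locus had high Hnf4α peaks on both diets, 68.0 and 60.0 on LD and 35.5 and 38.2 on CD. Mas1, a receptor of angiotensin peptides, had 2 loci and lay at 0.881 to 1.85 CPM on LD and 0.157 to 0.642 on CD (adjusted p = 0.00081). Bcl2l14 had the 2 adjacent loci of which a window is printed above, the first with Hnf4α on LD alone (21.2 and 26.8) and the second with C/EBPα on both diets (30.5 and 31.5 on LD, 26.5 and 10.5 on CD). It rose by 1.58 on the log2 scale (SE 0.22, adjusted p = 0.000256). Phospho1, a phosphatase, beside the printed window on chromosome 11, rose by 1.48 (SE 0.25, adjusted p = 0.00135), whereas Ibtk, also beside a printed window, differed by 0.19, under the fold threshold (adjusted p = 0.0401).

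Among the genes of factor families and small-protein families, Atf3, a stress-induced AP-1 family member, had a locus 17.7 kb away and lay at 3.82 to 8.76 CPM on LD and 1.25 to 2.63 on CD (log2 fold change 1.94, SE 0.24, adjusted p = 0.000158). Of the 11 tested AP-1 and ATF genes 5 were called higher and none lower. Ets2 had 2 loci, and although its mice did not overlap (37.2 to 44.1 against 31.9 to 36.8 CPM), its log2 fold change of 0.23 was under the fold threshold (adjusted p = 0.0229). Of the 12 ETS factor genes 2 were called higher and none lower, and of the 6 C/EBP family genes 1 was higher and none lower, both shares near the 13.8% of all tested rows. S100a10, the partner of annexin A2, had a locus 16.7 kb away and rose by 0.86 on the log2 scale (SE 0.17, adjusted p = 0.00344), and 12 of the 17 tested S100, annexin and galectin genes were called higher and none lower. Lgals1, a galectin, was at 108 to 197 CPM on LD and 22.0 to 41.6 on CD (log2 fold change 2.33, SE 0.24, adjusted p = 0.000142). An LD-only locus lay 12.6 kb from its TSS (chr15:78744000-78745199), with Hnf4α peaks of 11.5 and 17.8 on LD and 0 and 5.75 on CD, but the TSS of Pdxp, a phosphatase gene, was closer, and Pdxp rose by 1.88 (adjusted p = 0.00381) at a mean of 0.781 CPM on LD and 0.206 on CD. Cd36, the fatty acid translocase, was higher on LD (log2 fold change 1.89, adjusted p = 0.000104) and was neither the nearest gene nor a captured target of an LD-only locus.

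Only 39 tested nearest genes were called lower on LD. Those with 2 LD-only loci were Gse1, Mllt4 and Erc2. Gse1, a chromatin-associated protein, was at 8.39, 4.96, 6.45, 7.76 and 7.77 CPM on LD and 8.60, 12.7, 12.7, 12.4 and 11.8 on CD. CD mouse 1 was close to the highest LD mouse, without overlap, and Gse1 fell by 0.72 on the log2 scale (SE 0.15, adjusted p = 0.00284). Mllt4, the cell junction protein afadin, had 2 intronic loci with Hnf4α peaks of 58.8 and 42.0 (the first) and 68.5 and 36.2 (the second) on LD, and of 0 and 10 and of 16.0 and 28.5 on CD. Mllt4 was at 49.9 to 58.3 CPM on LD and 61.8 to 74.0 on CD, and it fell by 0.38 (SE 0.07, adjusted p = 0.00133), while the Hnf4α peaks were higher on LD. Erc2 fell by 0.36 (adjusted p = 0.0218, lost in 2 of 14 settings), 3110082I17Rik fell by 1.32 (adjusted p = 0.00765) and Bmf, a protein of the cell death machinery, fell by 1.07 (adjusted p = 0.00314).

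Promoter contacts offered another link from loci to genes. In PCHi-C, fragments that hold promoters are captured, and the other end of a contact shows what they touch. The authors pooled the libraries of a diet and deposited contacts with a CHiCAGO score of at least 5, so values have no replicate spread. The other end of a listed contact overlapped 451 LD-only loci (28.7%) in the LD list and 414 (26.4%) in the CD list, and 359 loci were contacted in both. Loci in all 6 libraries were contacted more often, at 47.5% on LD and 47.3% on CD, and CD-only loci at 32.4% and 31.3%. Loci acetylated on LD alone were thus contacted by promoters on CD nearly as often as on LD. The 1269 fragment pairs of the LD list and the 1163 of the CD list shared 892 pairs (70.3% and 76.7% of each list), and the score of a shared pair was higher on LD in 473 (53.0%), against 47.4% of all shared pairs of the lists and 50.8% of the 240 shared pairs of CD-only loci.

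The captured genes were rarely the nearest ones. Of the 377 contacted loci that had a gene within 50 kb, the nearest gene was a target at 22 (5.84%), and the median distance from a locus to the TSS of a target was 203 kb. There were 1037 target genes in all, of which 729 were tested. Of these, 121 (16.6%) were called higher on LD, against 13.8% of all tested rows, and 76 (10.4%) lower, against 11.1%, which is close to the background in both directions. The median log2 fold change was 0.02. Targets of the CD list alone were called higher in 24 of 116 cases and those of the LD list alone in 17 of 171. The 63 tested targets that were also nearest genes of an LD-only locus had 16 called higher and 4 lower.

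The called targets with the most LD-only loci were Smarca4, Cd72 and Atg4d, with 3 each. Of the 17 tested targets with 3 or more loci, 2 were called higher and 1 lower. With 2 loci 10 of 69 targets were called higher, and with 1 locus 109 of 643, so this share did not rise with the number of loci. Smarca4, the ATPase of the SWI/SNF remodelling complex, was contacted from loci 449.6 to 489.6 kb away, with scores of 5.74 to 10.5 on LD, and lay at 72.9 to 107 CPM on LD and 51.0 to 71.1 on CD (log2 fold change 0.63, SE 0.12, adjusted p = 0.00189). Icam1, a leukocyte adhesion molecule, shared 2 of those loci (chr9:20929400-20932599 and chr9:20957600-20959199) and rose by 0.72 (SE 0.12, adjusted p = 0.000659), while Atg4d, an autophagy protease whose promoter touched the same 3 loci as that of Smarca4, fell by 0.33 (SE 0.09, adjusted p = 0.0131). Cd72, a B cell and macrophage co-receptor, was at 3.65 to 9.54 CPM on LD and 2.36 to 2.995 on CD (log2 fold change 1.21, SE 0.21, adjusted p = 0.00118), and its contacts were listed on both diets. Npr2, a natriuretic peptide receptor, shared 2 loci with Cd72 and fell by 0.65 (adjusted p = 0.0473, a call lost in 10 of 14 settings, where adjusted p ranged from 0.00568 to 0.146).

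Some other targets called higher had 2 loci each. Thbs1, the matrix protein thrombospondin, rose by 1.28 on the log2 scale (adjusted p = 0.000466), Ly6d, a surface antigen, by 4.95 (adjusted p = 0.00263), Ptafr, the receptor of platelet-activating factor, by 0.87 (adjusted p = 0.000532), and Fen1, a DNA repair nuclease, by 0.76 (adjusted p = 0.000729). The Lpl promoter touched a pair of neighbouring loci (chr8:71527800-71532999 and chr8:71534400-71537999) on both diets, with scores of up to 14.8 on LD and 17.2 on CD. Of the targets called lower, Slc6a6, the taurine transporter, fell by 0.56 (SE 0.08, adjusted p = 0.000371) and Fzd5, a Wnt receptor, by 0.59 (SE 0.10, adjusted p = 0.000651). Fabp5, a fatty acid binding protein, was contacted from 1 locus 260.9 kb away with scores of up to 12.9 on LD and 12.7 on CD. Its CPM was 7.66, 12.9, 9.90, 9.13 and 11.2 on LD, against 287, 233, 56.8, 222 and 110 on CD, and it fell by 4.16 (SE 0.46, adjusted p = 0.000367). The captured list members Mpeg1, Nkg7, Klrb1c, Fosb, Fosl2 and Etv6 were not called, with log2 fold changes from -0.28 (Etv6) to 0.99 (Nkg7). Of these, Etv6 and Mpeg1 were called with the replicate block (adjusted p of 0.042 and 0.0286), although replicate numbers do not pair the samples. Single calls also came without CD mouse 5 for Etv6 (0.015), without LD mouse 4 for Mpeg1 (0.03), without LD mouse 3 for Nkg7 (0.0213) and without CD mouse 2 for Fosb (0.0157), whose log2 fold change was 0.46 and became 1.39.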

How the data were processed

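RNA was measured in 5 liver samples per diet, H3K27ac in 3, Hnf4α and C/EBPα in 2 each and PCHi-C in 2. The authors aligned RNA reads with STAR 2.5 and counted reads per gene with featureCounts 1.5.0-p1, and these deposited raw counts were used. For ChIP-seq they aligned with Bowtie 0.12.8 to mm9, removed duplicates with Picard 1.110, called H3K27ac intervals with SICER on a 200-bp grid (positions only) and factor peaks with HOMER. The deposited HOMER peak height, a signal, is a normalized tag count. The deposited CHiCAGO score was computed by the authors on the pooled libraries of a diet and listed from 5 upwards. The submitters' normalized expression and domain files were not used.

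Intervals were merged where they overlapped, with custom code, and the number of merged loci was compared with that from bedtools 2.31.1. The nearest gene was that with the closest TSS within 50000 bp. Counts were tested with edgeR 4.0.16 (quasi-likelihood, robust, TMM, filterByExpr, R 4.3.3), LD against CD, over 13494 of 25494 rows, and adjusted p-values (Benjamini-Hochberg) are from this fit unless another setting is named beside them. A call needed an adjusted p under 0.05 and a fold above 1.2. RNA depth was 31707963 to 39012699 counts, and ChIP depth is not in the files. Intervals of shares are exact Clopper-Pearson and cover counting error only. In simulated counts for this comparison (13435 genes tested), 97 of 100 genes with a log2 change of 1 and 100 of 100 with a change of 2 were recovered, with 12 false calls. The changed genes were drawn from rows with a mean above 1 CPM, and the simulated spread followed the trend over all genes. Recovery of genes under 1 CPM, or with a wider spread of their own, was therefore not tested.

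The members, gene lists and rules were chosen with earlier results of these data known. Named genes were those called higher (10) or lower (5) with the most LD-only loci, the 10 separated nearest genes with the largest change, the captured targets called higher (8) or lower (4) with the most loci, list members nearest to or captured by a locus, genes at the 5 highest peaks of each factor absent on CD and at the 5 widest loci, and Lgals1 and Cd36. Spred1, Fgl2, Mitf, Limd1, Ccr3 and Pdxp fall outside this rule and were named after their values were seen. Alternatives covered normalization, the low-count filter, DESeq2 1.42.0, the replicate block, each replicate left out, the merging, distance, height and score limits. A list member and a sequence window that the rules name are not reported here.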

Additional observations from a re-analysis of the deposited data

Results flagged for a closer look

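In 15 of 160 groups of 5 mice tested (9.38%), the highest or lowest mouse stood apart from the rest by Dixon's criterion, which chance gives in about 1 in 20 groups. LD mouse 2 was the highest in 4 of them: Itgam at 8.36 CPM (next 3.41), Tmsb4x at 302 CPM (next 184), Sh2d1b1 at 3.30 CPM (next 1.01) and the summed lymphocyte and granulocyte markers at 140.9 CPM (next 55.0). LD mouse 1 was lowest for Atf3 (3.82 CPM), and LD mouse 5 was lowest for Npr2 (17.5 CPM).

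On CD, mouse 1 was highest for Cd72 (2.995 CPM) and lowest for Gse1 (8.60 CPM) and Mllt4 (61.8 CPM), which brought it closer to the LD mice for these 3 genes. Mouse 2 was highest for Fosb (0.8875 CPM) and the summed cholangiocyte markers (32.7 CPM). Mouse 3 was highest for Mas1 (0.642 CPM) and Cyp2b13 (0.0559 CPM, with the others at 0) and lowest for the summed AP-1 and ATF genes (91.6 CPM). Mouse 5 was highest for Slc22a27 (2.10 CPM).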

How the results depend on the processing

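Other merging and width limits gave 1382 to 1559 LD-only loci, while 2 LD libraries without a CD library gave 4338, and leaving out 1 library gave 2040 to 2947, since fewer lists then had to meet the rule. With the 4338 loci, 420 of 1787 nearest genes tested were called higher and 124 lower (median log2 fold change 0.11), against 207 and 39 of 735. Within 10000 bp 94 of 281 were higher and 12 lower (median 0.24), and within 1000000 bp 236 of 971 were higher and 78 lower (median 0.13). Peaks of at least the median height of their library left 138 loci with Hnf4α and 155 with C/EBPα on LD. A CHiCAGO score of at least 10 left 136 contacted loci, with 32 targets called higher and 14 lower, and contacts in both lists gave 78 higher and 45 lower. In 14 alternatives of the RNA fit, 6 of 50 called named genes lost the call at least once, 6 of 16 named genes that were not called gained it at least once, and no called direction changed. With the replicate block, 216 nearest genes were called higher and 30 lower, and 125 targets higher and 70 lower. The replicate numbers do not pair the samples: 1 of 5 same-numbered pairs correlated best with its own number. The unknown ChIP depth limits what absence of an interval or peak says.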
